A study of Homo sapiens with 6 samples.

Results

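The 4 HOX gene clusters were examined for BRD8 and CTCF peaks, measured by chromatin immunoprecipitation followed by sequencing (ChIP-seq) in human lung epithelial cell lines. A peak was taken as belonging to a cluster where its summit lay in a fixed hg19 window around that cluster, with flanks: chromosome 7 from 27.05 to 27.35 Mb for HOXA, chromosome 17 from 46.55 to 46.9 Mb for HOXB, chromosome 12 from 54.25 to 54.5 Mb for HOXC and chromosome 2 from 176.85 to 177.15 Mb for HOXD. These windows held 83 of the 35687 peaks of the series. Of these, 24 of 9769 were BRD8 peaks of Calu3, a lung adenocarcinoma line, 21 of 9505 were BRD8 peaks of 16HBE14o-, a bronchial epithelial line, and 38 of 16413 were CTCF peaks of Calu3. Both lines were untreated and grown in the same serum-supplemented medium. Each of the 3 experiments had 2 replicates, from which the authors made 1 list of reproducible peaks, so every value below is a pooled value without a spread. The labels do not say whether replicates were separate cultures, and the sequencing depth is unknown.

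HOX genes encode homeodomain transcription factors that give cells their position along the body axis, and their order along the chromosome follows the order of their expression domains. CTCF is a zinc finger protein that marks insulators and loop anchors, and CTCF sites inside HOX clusters are known to separate active from repressed genes. BRD8 carries a bromodomain, which binds acetylated lysine, and belongs to the NuA4/TIP60 complex that acetylates histones. HOXA5 is required for normal development of the airways and lung, HOXB1 acts in the hindbrain, HOXD10 in limb innervation, HOXA10 and HOXA11 in the uterus, HOXA13 and HOXD13 in digits, HOXB13 in the prostate and HOXC13 in hair. All 38 HOX genes considered here were found in the RefSeq gene table: 10 in HOXA, 10 in HOXB, 9 in HOXC and 9 in HOXD. By RefSeq order, increasing coordinates run from HOXA2 to HOXA13 and from HOXB1 to HOXB13, but from HOXC13 to HOXC4 and from HOXD13 to HOXD1. That table is on another genome build (GRCh38.p14), so it gave names and order only, and no peak was assigned to a single HOX gene.

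RefSeq promoters were at hand for 20 of the 38 HOX genes and were searched for a short CTCF core. The other HOX genes were not searched. The letters searched were CC, any 3 bases, AG, any 2 bases and GGC, on both strands, in windows of 300 bases from 250 before to 50 after a gene start. Of 27 such windows of 20 listed HOX genes, 4 held it (14.8%, 95% exact interval 4.19 to 33.7%), against 10.6% of all 35116 promoters, and the interval includes that share. HOXA10 had 2 windows, of which 1 held it. The matches are shown with up to 40 bases on either side, 5′ to 3′ along the gene's strand, with the core in capitals, because they are the only stretches of these promoters that hold it. A match is a description of letters and not a measured CTCF site, and the distance from these promoters to the hg19 peaks was not measured.
HOXA10 (GRCh38.p14, core 56 to 45 bases before the start, minus strand of the chromosome): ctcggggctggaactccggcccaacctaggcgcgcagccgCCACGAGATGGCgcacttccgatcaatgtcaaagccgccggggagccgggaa
HOXA11 (GRCh38.p14, core 187 to 176 bases before the start, minus strand of the chromosome): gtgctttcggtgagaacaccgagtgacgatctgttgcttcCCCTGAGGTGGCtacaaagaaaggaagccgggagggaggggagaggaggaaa
HOXD10 (GRCh38.p14, core 98 to 87 bases before the start, plus strand of the chromosome): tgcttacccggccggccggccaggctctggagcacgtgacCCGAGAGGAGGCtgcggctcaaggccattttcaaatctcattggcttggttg
HOXD1 (GRCh38.p14, core 245 to 234 bases before the start, plus strand of the chromosome): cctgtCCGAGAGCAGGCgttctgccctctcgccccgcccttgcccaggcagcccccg
In all 4 promoters the core runs along the gene's own strand.

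The first question was how densely each cluster was occupied. Over the 4 windows, BRD8 peaks stood at 20.0 per Mb in Calu3 and 17.5 per Mb in 16HBE14o-, against 3.22 and 3.13 per Mb over the autosomes and X. CTCF peaks stood at 31.7 per Mb against 5.41. The HOXA and HOXD windows were islands between nearly empty flanks. In HOXA, 8 Calu3 BRD8, 4 16HBE14o- BRD8 and 11 CTCF peaks lay in 300 kb, and the 2 flanks of that length together held 1 Calu3 BRD8 peak, no 16HBE14o- BRD8 peak and 2 CTCF peaks. In HOXD, 5 Calu3 BRD8, 6 16HBE14o- BRD8 and 7 CTCF peaks lay in the window, and the flanks held 0, 1 and 1. HOXB held the most peaks over the 3 lists, with 8, 8 and 14 in 350 kb, and its 2 flanks together held 4, 7 and 15 peaks. Calu3 BRD8 was denser in HOXA, at 26.7 per Mb against 22.9 in HOXB. HOXC did not stand above its surroundings. Its window held 3, 3 and 6 peaks in 250 kb, at 12.0, 12.0 and 24.0 per Mb, and its flanks reached 32.0 per Mb for Calu3 BRD8, 20.0 for 16HBE14o- BRD8 and 32.0 for CTCF. All 4 windows were denser than their whole chromosomes in all 3 lists, which had between 2.74 and 7.25 BRD8 peaks and between 4.68 and 12.5 CTCF peaks per Mb. No test of density was made, since neighbouring peaks are not independent.

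**Figure D1:**
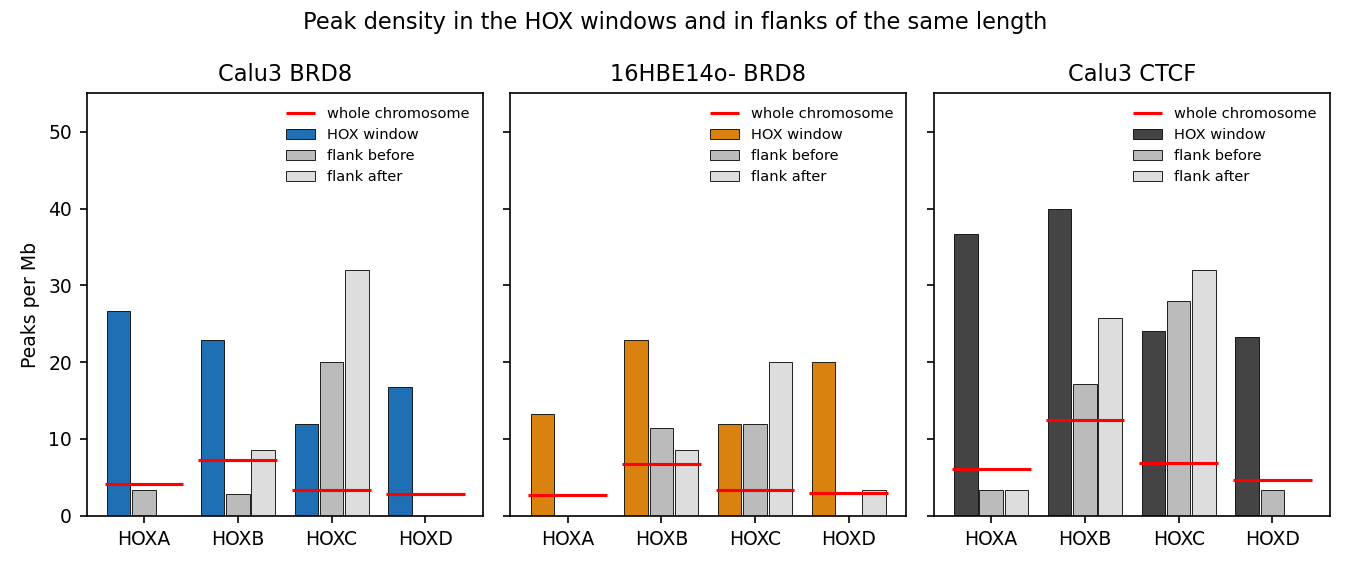
Peaks per Mb (vertical axis) in each HOX window, in the flank of the same length before and after it, and over the whole chromosome (red line), for the 3 lists. HOXA and HOXD rise above nearly empty flanks, and HOXC (12.0 per Mb for Calu3 BRD8) lies below a flank of 32.0 per Mb.

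The windows are wider than the occupied stretches. The nearest summit inside an edge lay between 8.06 kb (end of HOXB, Calu3 BRD8, signal 24.8) and 144 kb (end of HOXD, Calu3 BRD8, signal 86.4) from it. The nearest summit outside lay between 15.2 kb (before HOXB, CTCF, signal 54.1) and 295 kb (before HOXD, CTCF, signal 28.0) away. Signal is the authors' own value for a peak. It served as a rank inside its own list, since lists may differ in scale.

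Peaks of the 3 lists that overlapped by at least 1 bp were joined into sites, and sites were numbered from the window's start. The 83 peaks formed 39 sites: 12 in HOXA, 15 in HOXB, 5 in HOXC and 7 in HOXD. The median spacing between neighbouring sites was 12.4 kb in HOXA, 12.1 kb in HOXB, 10.1 kb in HOXC and 13.6 kb in HOXD. The sites of HOXC spanned 47.8 kb and those of HOXB 322 kb. CTCF was listed at 35 of the 39 sites (89.7%), against 75.8% of all 21110 sites of the series. BRD8 was listed at 27 sites: at 14 in both lines, at 6 in Calu3 alone and at 7 in 16HBE14o- alone. The 27 were 69.2% of the HOX sites, against 64.2% of all sites. CTCF alone made up the other 12 (30.8%, against 35.8%). BRD8 in both lines with CTCF was found at 12 of 39 sites (30.8%), against 16.8% of all sites. BRD8 in Calu3 alone without CTCF was found at 0 of 39, against 8.71% of all sites. A rough upper limit for a count of 0, taken as 3 of 39 or 7.69%, is not an exact interval. It lies too near 8.71% to set this class apart. These shares of sites were not weighted for signal, and the median HOX CTCF peak stood at percentile 72.8 of its list.

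**Figure D2:**
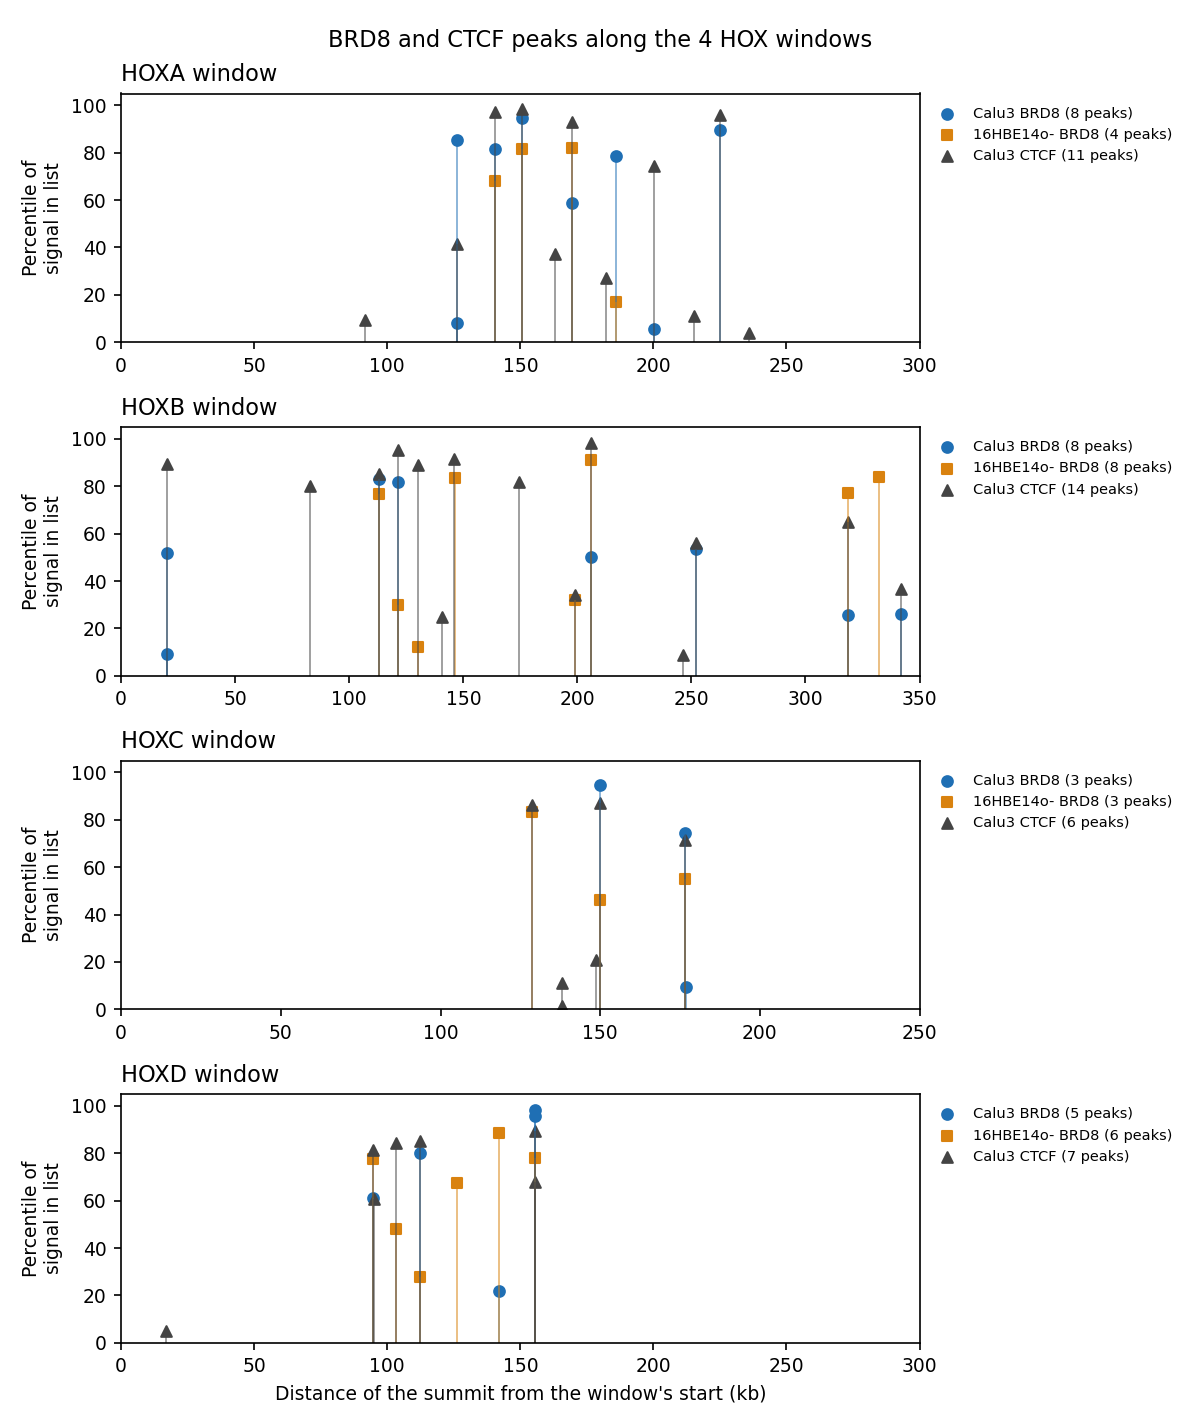
Peaks along the 4 HOX windows. The horizontal axis is the distance of a summit from the window's start in kb, and the vertical axis is the percentile of its signal in its own list, where 100 is the strongest peak. Symbols mark Calu3 BRD8, 16HBE14o- BRD8 and Calu3 CTCF, and the sites of HOXC span only 47.8 kb of the window.

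BRD8 was compared between the lines within the clusters. Of the 24 Calu3 BRD8 peaks, 15 overlapped a 16HBE14o- peak (62.5%, 95% exact interval 40.6 to 81.2%), against 50.1% of the whole Calu3 list. In the other direction 14 of 21 peaks were shared (66.7%, 43.0 to 85.4%), against 43.4% of the 16HBE14o- list. Both intervals cover counting error only and include the share of the whole list, the second narrowly. With summits at most 100 bp apart or peaks set to 200 bp, the second interval was unchanged. The share of the 16HBE14o- list was then 40.4% and 42.8%, just below it. When the list-wide share was weighted to the signal deciles of the HOX peaks, it was 56.1% for Calu3 and 49.1% for 16HBE14o-, each inside its interval. A reciprocal overlap of at least 50% left 1 shared peak in each direction, or 4.17% and 4.76%. That rule is limited by the peak widths of the lists. The lists differed by cluster. In HOXA all 4 16HBE14o- peaks had a Calu3 partner, while 4 of the 8 Calu3 peaks had one in 16HBE14o-. In HOXB, 4 of 8 peaks of each line were shared. These counts are too small to rank the clusters.

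Most BRD8 peaks of the clusters lay at CTCF. In Calu3, 22 of 24 overlapped a CTCF peak (91.7%, 95% exact interval 73.0 to 99.0%), against 70.5% of the whole list and 76.3% after weighting to the deciles of the HOX peaks. The interval includes the weighted share. It lies above the unweighted one, but under 5 of 6 alternatives it included the share of the whole list, for example 69.6 to 98.8% against 70.6% after overlapping peaks were merged, which left 21 regions. In 16HBE14o-, 17 of 21 overlapped a Calu3 CTCF peak (81.0%, 58.1 to 94.6%), against 65.3% and, weighted, 72.2%. The Calu3 count also depends on the overlap rule: with a reciprocal overlap of at least 50% it was 11 of 24 (45.8%), against 41.9% of the list. With no CTCF list for 16HBE14o-, absence of a CTCF peak here means only that none was listed in Calu3.

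Seen from CTCF, 20 of 38 HOX peaks carried Calu3 BRD8 (52.6%, 95% exact interval 35.8 to 69.0%), against 36.1% of the whole list and 42.1% weighted by decile. For 16HBE14o- BRD8 the count was 18 of 38 (47.4%, 31.0 to 64.2%), against 38.0% and, weighted, 46.6%. The interval of each includes the weighted share. With only the stronger 50% of each list, 16 of 24 carried Calu3 BRD8 (66.7%, 44.7 to 84.4%). The share of the list was then 36.5%, unweighted and below that interval. Under the other alternatives the interval for Calu3 BRD8 included the share of the whole list. As in the whole list, CTCF peaks in the strongest 20% carried BRD8 more often than those in the weakest 50%. Of 17 HOX CTCF peaks in the strongest 20% of the list, 12 had Calu3 BRD8, 14 had 16HBE14o- BRD8 and 16 had either. The shares of the list's peaks of that strength were 62.9%, 73.2% and 86.0%. Of 14 in the weakest 50%, 3 had either, where 36.1% of the list's did. Of the 7 between these bands, 6 had Calu3 BRD8, 3 had 16HBE14o- BRD8 and 6 had either. The list's shares there were 40.1%, 40.6% and 57.0%. For Calu3 BRD8 the HOX peaks thus did not fall from the strongest band to the middle one as the list did, though 7 peaks are few.

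The CTCF peaks with BRD8 in both lines numbered 13. Their signals ran from 48.8 to 246 with a median of 139, and their percentiles from 65.0 to 98.4. The 13 with BRD8 in neither line ran from 8.22 to 107 with a median of 19.5, at a median percentile of 11.1 where the list's peaks of that kind had 34.1. Only 2 of these 13 stood above percentile 37.1, and both lay in HOXB: site 2 (chromosome 17, 46632663 to 46632778, signal 95.8) and site 8 (46724284 to 46724577, signal 107). Peaks with BRD8 in 16HBE14o- alone numbered 5 and were strong, with a median signal of 133, except HOXB site 9 at 27.0. The 7 with BRD8 in Calu3 alone spread from 28.0 to 212.

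**Figure D3:**
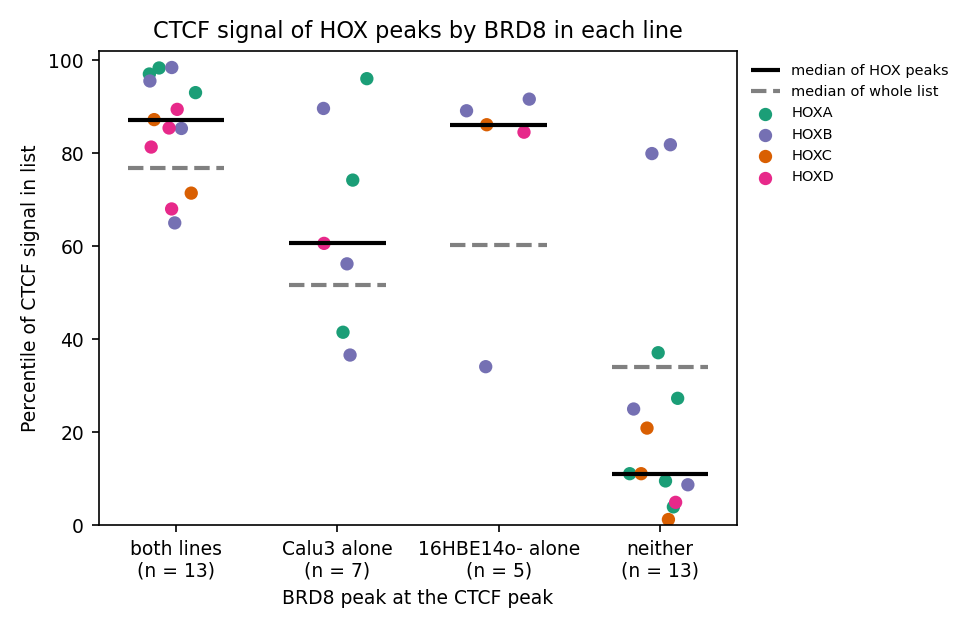
Percentile of CTCF signal (vertical axis) for each of the 38 HOX CTCF peaks, grouped by the line in which BRD8 was listed there and coloured by cluster. Black lines are medians of the HOX peaks and dashed grey lines those of the whole list; the peaks with BRD8 in neither line have a median percentile of 11.1, and 2 HOXB peaks stand apart from them near percentile 80.

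HOXA held the strongest CTCF peaks beside HOXB. At HOXA site 4 (chromosome 7, 27200486 to 27200961) CTCF had a signal of 246 and rank 274 of 16413, Calu3 BRD8 78.6 and rank 521, and 16HBE14o- BRD8 40.4 and rank 1741. Site 3 (27190353 to 27190828), 10.2 kb before it, also had all 3, with CTCF at 225, Calu3 BRD8 at 49.8 and 16HBE14o- BRD8 at 34.2. Site 6 (27219320 to 27219795) had CTCF at 182, and there BRD8 stood at percentile 58.7 in Calu3 and 82.1 in 16HBE14o-, its strongest value of that cluster with signal 40.6. These were the 3 sites of HOXA held by all 3 lists. At site 11 (27274905 to 27275380) CTCF was nearly as strong, 212 at rank 652, and BRD8 was listed in Calu3 with 62.4 at rank 1016, but not in 16HBE14o-. Site 2 (27175933 to 27176621) likewise had BRD8 in Calu3 alone, in 2 overlapping peaks of signals 54.9 and 12.8, over a weaker CTCF peak of 30.1.

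HOXB had its strongest CTCF peak of all at site 10 (chromosome 17, 46755695 to 46756170), with signal 246 and rank 271. This was also the strongest 16HBE14o- BRD8 peak of the 4 clusters, 47.8 at rank 865, while Calu3 BRD8 stood there at 32.2 and rank 4854. At sites 3 (46662640 to 46663115) and 4 (46671164 to 46671639) the lists stood differently: Calu3 BRD8 had 51.5 and 50.5, its strongest values in HOXB, and 16HBE14o- BRD8 had 37.7 at percentile 76.6 and 25.1 at percentile 30.0. CTCF at site 4 was 206. Site 13 (46868298 to 46868773) was the last with all 3 lists, with CTCF at 48.8. Between them lay sites with CTCF and BRD8 of 16HBE14o- alone: site 5 (46679986 to 46680231, CTCF 153), site 7 (46696023 to 46696264, CTCF 169) and site 9 (46749025 to 46749314, CTCF 27.0). BRD8 of Calu3 alone was at site 1 (46569790 to 46570482, CTCF 156), site 12 (46801819 to 46802294, CTCF 38.7) and site 15 (46891706 to 46892181, CTCF 28.0). These lay 20.0, 252 and 341.9 kb from the window's start, and the sites with CTCF and BRD8 of 16HBE14o- alone between 130.1 and 199.2 kb.

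HOXC held few peaks. At site 4 (chromosome 12, 54399699 to 54400174) CTCF had 139, Calu3 BRD8 79.4 at rank 506 and 16HBE14o- BRD8 28.3 at rank 5116. Site 5 (54426301 to 54426975) also had all 3 lists, with CTCF at 62.0, Calu3 BRD8 at 43.8 with a second overlapping peak of 13.6, and 16HBE14o- BRD8 at 30.4. Site 1 (54378647 to 54378870) had CTCF at 133 with BRD8 in 16HBE14o- alone, 41.5 at rank 1594, which was the strongest 16HBE14o- value of that cluster.

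HOXD had the strongest Calu3 BRD8 of the 4 clusters. Site 7 (chromosome 2, 177005248 to 177005707) held 2 Calu3 BRD8 peaks of signals 123 and 86.4, at ranks 184 and 406 of 9769, and 2 CTCF peaks of 154 and 54.3. The single 16HBE14o- BRD8 peak there had 38.3 at rank 2089. Site 4 (176962217 to 176962692) had CTCF at 127, Calu3 BRD8 at 48.7 and 16HBE14o- BRD8 at 24.6. Site 2 (176944578 to 176945161) had 2 CTCF peaks of 103 and 42.9, with BRD8 at 36.6 in Calu3 and 38.1 in 16HBE14o-. Site 3 (176953115 to 176953338) had CTCF at 122 with BRD8 of 16HBE14o- alone, at 28.7. No peak of any list lay in the last 144 kb of the window.

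Over the 4 clusters, the 3 strongest CTCF peaks of each made 12 peaks, of which 9 carried Calu3 BRD8, 11 carried 16HBE14o- BRD8 and 8 carried both. BRD8 was frequent at strong CTCF peaks throughout the series, as the shares of the strongest 20% above show. The 14 sites with BRD8 in both lines had a median percentile of 79.4 in Calu3 and 76.9 in 16HBE14o-. The Calu3 percentile was the higher at 9 of the 14 (64.3%), as it was at 56.2% of the 4105 such sites of the series. It was higher at HOXA sites 3, 4 and 8, HOXB sites 3 and 4, HOXD sites 4 and 7 and both HOXC sites. A percentile gives a place within a list, and lists of different length and unknown depth do not show a change in occupancy.

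**Figure D4:**
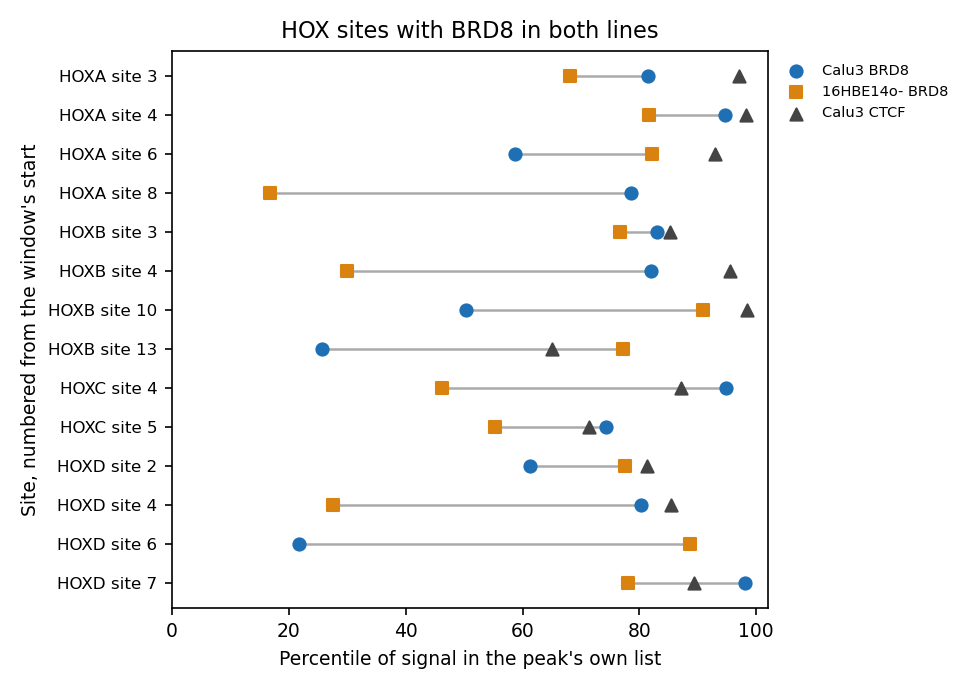
The 14 HOX sites with BRD8 in both lines. The horizontal axis is the percentile of the strongest peak in its own list, with a grey line joining the values of the 2 lines, and triangles give CTCF where it was listed; Calu3 is the higher at 9 sites.

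BRD8 without a listed CTCF peak was found at 4 sites. HOXA site 8 (chromosome 7, 27235754 to 27236229) had BRD8 in both lines, 47.1 at percentile 78.5 in Calu3 and 22.7 at percentile 16.8 in 16HBE14o-, with the summits 3 bp apart and the nearest CTCF summit 3.72 kb away. HOXD site 6 (chromosome 2, 176991719 to 176992194) also had both, and there the order was the other: 23.5 at percentile 21.8 in Calu3 and 45.7 at percentile 88.7 in 16HBE14o-, the strongest 16HBE14o- peak of HOXD. HOXD site 5 (176976024 to 176976247, signal 34.1) and HOXB site 14 (chromosome 17, 46882268 to 46882491, signal 42.0) had BRD8 in 16HBE14o- alone, with the nearest CTCF summit 13.7 and 9.56 kb away. All 4 sites were nearer to CTCF than the median BRD8 peak without CTCF of either list, at 24.7 kb in Calu3 and 47.6 kb in 16HBE14o-, in windows where CTCF peaks were dense.

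The summits of BRD8 and CTCF lay close together at most sites, about as often as in the whole lists. In Calu3 the median distance over 22 overlapping peaks was 26.5 bp (quartiles 13.2 and 67.5 bp), against 37.0 bp over the list, and 14 lay within 50 bp (63.6%, against 60.5% of the list). For 16HBE14o- BRD8 it was 16.0 bp over 17 peaks (quartiles 6.0 and 35.0 bp), against 19.0 bp over the list, and 16 lay within 50 bp (94.1%, against 89.3%). At HOXA site 6 the 16HBE14o- summit was 1 bp and the Calu3 summit 9 bp from that of CTCF. At HOXD site 3 the 16HBE14o- summit was 2 bp away, and at HOXB site 10 the Calu3 summit was 4 bp away. In Calu3, 4 of the 22 BRD8 summits lay over 100 bp from that of CTCF. At HOXA site 2, HOXB site 1 and HOXC site 5 these were second peaks that overlapped a stronger Calu3 BRD8 peak, with distances of 153, 207 and 232 bp. The fourth, at HOXA site 9 (chromosome 7, 27249965 to 27250637), was the only BRD8 peak of its site. Its summit, of signal 10.8, lay 290 bp from a CTCF summit of signal 70.6, and the peaks overlapped by 93 bp.

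**Figure D5:**
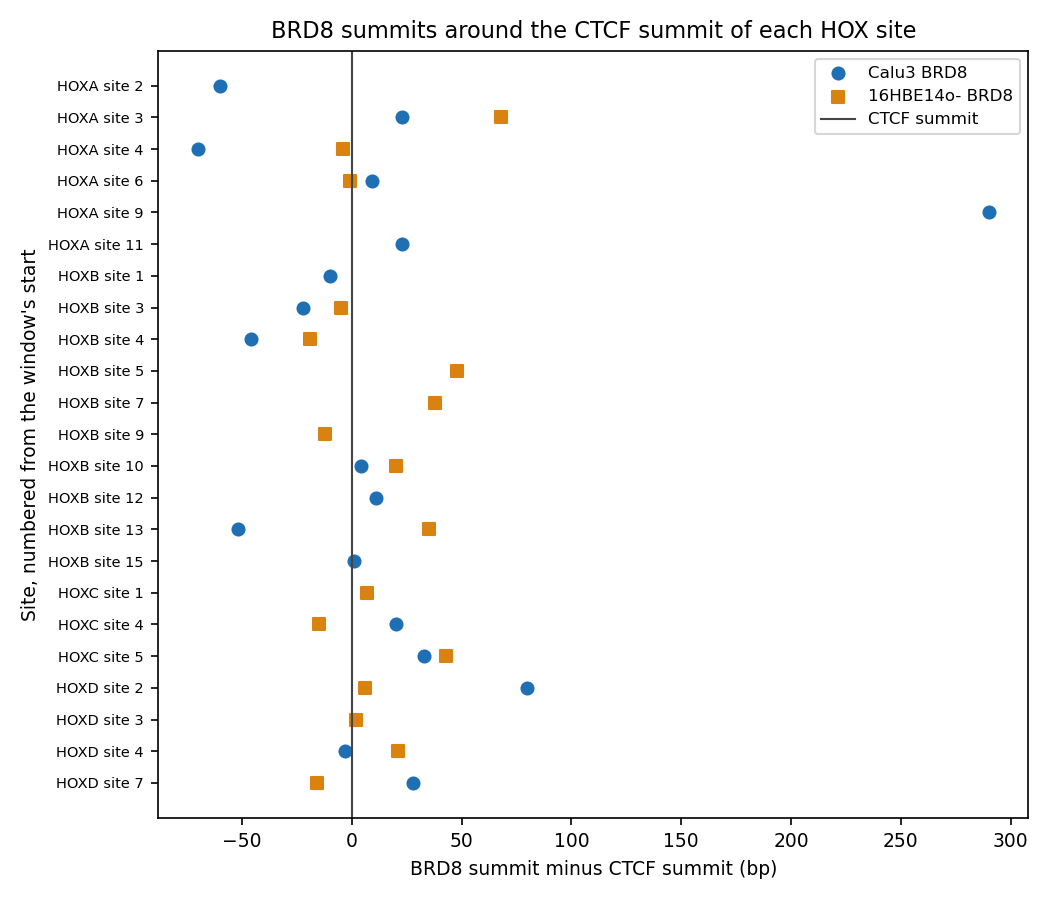
Signed distance in bp from the CTCF summit (line at 0) to the strongest BRD8 summit of each line, at the 23 HOX sites that hold CTCF and BRD8. Points lie on both sides of 0 and within 80 bp of it, except HOXA site 9 at 290 bp.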

How the data were processed

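BRD8 was mapped in Calu3 and 16HBE14o- and CTCF in Calu3, with 2 replicates each and 6 samples in all. The authors reduced the replicates of each experiment to 1 list of peaks by the irreproducible discovery rate, per the design text in the labels. Files follow the narrowPeak layout, with hg19 named in their headers and in the submitters' processing notes. The aligner, peak caller, control and settings are not given in the sources used here. The deposited signal column ordered the peaks of a list. The 2 deposited score columns were not used. Summits came from the other deposited column, the offset from a peak's start.

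Windows came from a rule on positions, with members and lists chosen when earlier results of these data were known. Sites are named by a rule: those held by all 3 lists, BRD8 sites without CTCF, and the strongest CTCF and BRD8 peaks of each cluster. The sites with BRD8 in 1 line and with CTCF alone that are described beside them, the decile weighting, the bands of CTCF strength, the comparison of percentiles, the distances to CTCF and the promoter search were added after the values were seen. The tools were Python 3.11.15, pandas 2.3.3, numpy 2.4.6 and, for intervals, scipy 1.17.1. Overlaps were tested on simulated data. Chromosome lengths came from GenomeInfoDb 1.38.1, figures from matplotlib 3.10.9. Intervals are 95% exact Clopper-Pearson and cover counting error only. With pooled lists no test across replicates was possible. An hg19 annotation and genome were not used here, so peaks were not placed in genes, the CTCF core was not searched in peaks, and a planned list of HOX cofactor and regulator genes was not analysed here.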

Additional observations from a re-analysis of the deposited data

How the results depend on the processing

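Shares, counts and distances were recomputed under 6 alternatives: summits at most 100 bp apart, peaks set to 200 bp, a reciprocal overlap of 50% or more, overlapping peaks merged, only the stronger 50% of a list, and windows trimmed by 50 kb at both ends. The reciprocal rule moved the shares that involve the wide Calu3 BRD8 peaks outside their intervals: 4.17% of Calu3 BRD8 peaks with 16HBE14o- BRD8, 4.76% in the other direction, 45.8% of Calu3 BRD8 peaks with CTCF and 28.9% of CTCF peaks with Calu3 BRD8. Under that rule the shares of the whole lists were 4.37%, 4.44%, 41.9% and 24.5%. Using the stronger 50% of the list left 24 of the 38 CTCF peaks (63.2%), a fall by more than 1.5 times. Such a setting can only lower a count. The other values stayed within the interval of the reported share or median, or within 1.5 times the reported count. No paired analysis was possible because each list pools its replicates and no value per replicate was used here. For the same reason no replicate could be left out.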
